A study of Mus musculus with 8 samples.

Results

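The genes *Scn2b*, *Scn3b* and *Scn4b*, which encode beta subunits of the voltage-gated sodium channel, were examined in the brain of young mice that lack a regulatory interval of the alpha subunit gene *Scn1a*. They were chosen by name as 3 entries of the 24015 in the deposited table, and 3 of 3 were among the 15588 entries that passed the filter on low counts (CPM, counts scaled to library size, of 1 or more in any library). *Scn4b* passed only through 1b-/- replicate 1, the single library in which it exceeded that level. Poly(A) RNA of 8 mice, aged 7 postnatal days (P7), was sequenced, with 1 library per animal as the labels give it. The study asked how loss of the conserved non-coding interval named 1b changes gene expression. All animals came from 1 line on C57BL/6N, made with Cas9 in oocytes, in which the deletion is constitutive and removes part of *Scn1a* without touching its coding sequence. WT animals carried 0 deleted alleles (n = 2, both male), 1b+/- animals carried 1 (n = 4, 2 males and 2 females) and 1b-/- animals carried 2 (n = 2, both female). WT and 1b-/- thus differed in sex as well as genotype, and the 2 cannot be told apart between those groups. The sample labels name the tissue as hippocampus and the methods name forebrain, so the region is uncertain.

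Each sodium channel consists of a large pore-forming alpha subunit and smaller beta subunits, single-pass membrane proteins with an extracellular immunoglobulin domain. Beta subunits change the gating and surface level of the channel and act as cell adhesion molecules that bind ankyrins, neurofascin, contactin and tenascins. The products of *Scn2b* and *Scn4b* attach to the alpha subunit by a disulfide bond, whereas that of *Scn3b* binds without one. In rodent brain *Scn3b* is known for high expression around birth and *Scn2b* for a rise as axons mature. *Scn4b*, whose cytoplasmic tail can act as the open-channel blocker behind resurgent current, is known from striatal projection neurons and cerebellar Purkinje cells. Beta subunits are also substrates of the beta-secretase *Bace1* and of gamma-secretase.

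The 3 genes lie on the plus strand of mouse chromosome 9. In the mm9 build, to which the reads were aligned, *Scn3b* spans 40076801 to 40099203, with 3 annotated transcripts and 5 merged exons (4606 exonic bases). *Scn2b* spans 44925959 to 44938153, with 2 transcripts and 4 merged exons (4562 exonic bases). *Scn4b* spans 44946520 to 44962235, with 1 transcript of 5 exons (4940 exonic bases). *Scn2b* and *Scn4b* are close neighbours with 8366 bases between them, and *Scn3b* lies 4.83 Mb from *Scn2b*. *Gm10684*, annotated on the minus strand from 44915259 to 44943689, covers the whole of *Scn2b* but shares 0 exonic bases with it. Counts were made per gene, so transcripts and their start sites were not separated.

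The promoters of the neighbours *Scn2b* and *Scn4b* are shown because these adjacent genes differed widely in level. Each sequence holds 250 bases before and 50 after the annotated start, from RefSeq on the GRCm38.p6 build, which is not the build of the counts. Of the 3 genes, 2 had an entry among the 32851 promoters. Capitals mark each CG dinucleotide, searched as CG, which reads the same on both strands. *Scn2b* lies at chr9:45117626-45117925 (plus strand) and *Scn4b* at chr9:45138374-45138673 (plus strand).
Scn2b: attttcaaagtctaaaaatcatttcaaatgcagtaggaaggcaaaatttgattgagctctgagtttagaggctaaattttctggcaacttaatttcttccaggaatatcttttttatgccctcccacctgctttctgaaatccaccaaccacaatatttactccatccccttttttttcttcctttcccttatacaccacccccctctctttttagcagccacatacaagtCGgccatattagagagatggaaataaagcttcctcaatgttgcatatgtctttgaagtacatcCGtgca
Scn4b: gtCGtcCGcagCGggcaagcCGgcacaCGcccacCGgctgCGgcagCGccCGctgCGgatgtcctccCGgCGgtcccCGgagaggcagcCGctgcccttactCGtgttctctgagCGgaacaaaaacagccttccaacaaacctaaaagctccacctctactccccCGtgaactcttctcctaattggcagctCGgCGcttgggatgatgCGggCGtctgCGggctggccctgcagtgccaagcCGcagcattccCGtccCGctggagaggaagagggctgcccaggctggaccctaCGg
The windows differed in base composition. That of *Scn2b* was 38.3% G or C with 2 CG dinucleotides. Of all promoters, 7.45% had a lower GC content and 14.1% had fewer CG dinucleotides. That of *Scn4b* was 66.3% G or C with 26 CG dinucleotides, where 84.4% of promoters had a lower GC content and 83.1% fewer CG dinucleotides. Over all promoters the medians were 52.7% and 7, and 5.43% held no CG. These are descriptions of the sequence.

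Libraries differed in depth and in tissue content. Total counts ranged from 2947770 in 1b+/- replicate 4 to 20878772 in 1b+/- replicate 3, so that 3 counts corresponded to between 0.145 and 1.002 CPM. *Scn1a*, the targeted gene, was 40.5 and 45.1 CPM in WT, 15.7 to 26.7 CPM in 1b+/- and 2.003 and 3.18 CPM in 1b-/-, in the order of the labels. All 8 pan-neuronal genes were detected in every library, and their sum was 5994 to 7134 CPM. Hippocampal field markers summed to 98.9 to 162 CPM and neocortical markers to 2451 to 5055 CPM. *Neurod6* (915 to 2040 CPM) and *Mef2c* (868 to 1987 CPM) were the highest genes of the neocortical list. The sums are of different genes and do not tell which region was taken. A list of 9 epithelial genes, written from earlier results of these data, summed to 199.8 and 52.9 CPM in WT and to 2.42 to 7.78 CPM elsewhere. Midbrain and hindbrain markers summed to 73.2 CPM in 1b+/- replicate 1 and to 3.34 to 27.5 CPM elsewhere. The choroid plexus sum was lowest in 1b+/- replicate 2 (32.1 CPM) and highest in WT replicate 2 (1059 CPM). In bulk tissue, fewer cells of a type and less RNA per cell cannot be told apart.

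*Scn3b* was by far the most abundant of the beta subunit genes and *Scn4b* was close to the detection limit. Levels per length are given as RPKM, the TMM-scaled CPM per kb of merged exons. Mean RPKM over the 8 libraries was 56.1 ± 8.20 for *Scn3b* (SD, n = 8), 4.72 ± 0.956 for *Scn2b* and 0.129 ± 0.0789 for *Scn4b*. Of the 14294 tested genes with a length, 94.5% had a lower mean level than *Scn3b*, 47.2% a lower one than *Scn2b* and 2.10% a lower one than *Scn4b*. The order held in 8 of 8 libraries. *Scn3b* made up 90.3% to 94.3% of the summed RPKM of the 3 genes, *Scn2b* 5.55% to 9.18% and *Scn4b* 0.0454% to 0.504%.

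Set among 12 sodium channel genes with a length, *Scn3b* ranked first. Its range of 41.5 to 68.0 RPKM lay above that of *Scn2a1* (29.8 to 41.1 RPKM), an alpha subunit gene of immature axons, and of *Scn3a* (12.95 to 17.5 RPKM), an alpha subunit gene of the developing brain. *Scn2b* ranked 4, at 3.37 to 6.20 RPKM, below *Scn3a* in every library. It was not separated from the next gene in the order, since *Scn9a* ranged from 1.90 to 4.68 RPKM. The order is by the mean over all genotypes, and in WT the nearest gene was *Scn1a* at 4.07 and 3.65 RPKM in replicates 1 and 2, against 3.37 and 5.27 RPKM of *Scn2b*. *Scn4b* ranked 11, at 0.0310 to 0.273 RPKM, and overlapped *Scn10a*, *Scn7a*, *Scn11a* and *Scn4a*. *Scn8a* was counted (64.1 to 85.3 CPM) but carries its name on more than 1 annotated gene, so it was given no length and no rank. Its place in this order is therefore not known, and the ranks hold only among the genes with a length.

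**Figure D1:**
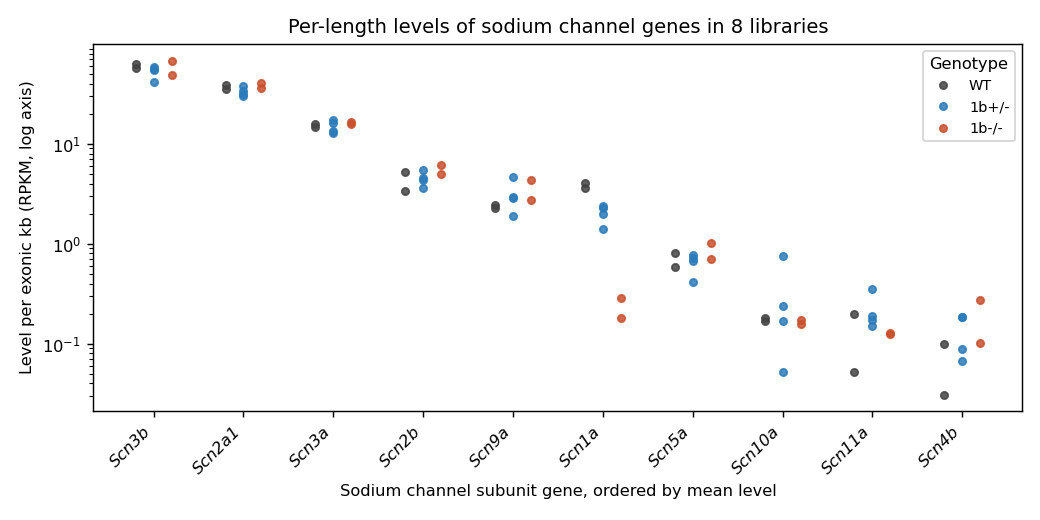
Level of sodium channel genes per kb of exon (RPKM, log axis) in 8 libraries, coloured by genotype (WT n = 2, 1b+/- n = 4, 1b-/- n = 2), each point being 1 library. *Scn3b* lies above every other gene drawn at 41.5 to 68.0 RPKM and *Scn4b* lies near the bottom at 0.0310 to 0.273 RPKM. The points of *Scn1a* step down from WT through 1b+/- to 1b-/-. *Scn7a* and *Scn4a*, at 0 in some libraries, and *Scn8a* are not drawn.

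*Scn3b* was measured with 751 to 5628 counts per library. Its TMM-scaled level was 264 and 291 CPM in WT replicates 1 and 2. It was 259.8, 191, 273 and 251 CPM in 1b+/- replicates 1 to 4, and 225 and 313 CPM in the 1b-/- replicates. The genotypes overlapped, and both the highest library (1b-/- replicate 2) and the second lowest (1b-/- replicate 1) were 1b-/-. The WT mean was 277 ± 18.9 CPM (SD, n = 2), the 1b+/- mean 244 ± 36.2 CPM (SD, n = 4) and the 1b-/- mean 269 ± 62.5 CPM (SD, n = 2). The 95% counting interval was 183 to 200 CPM in the lowest library and 296 to 331 CPM in the highest. These intervals cover counting error only.

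*Scn3b* did not pass the test in any comparison of genotypes. The edgeR log2 fold change was -0.19 (SE 0.17, 95% interval -0.57 to 0.20, unadjusted p = 0.308) in 1b+/- against WT. It was -0.05 (SE 0.20, 95% interval -0.49 to 0.40, unadjusted p = 0.828) in 1b-/- against WT. In 1b-/- against 1b+/- it was 0.14 (SE 0.18, 95% interval -0.24 to 0.52). As folds, the interval in 1b-/- against WT ran from 0.712 to 1.32. The sign in 1b-/- against WT changed when either WT replicate 2 (0.03) or 1b-/- replicate 1 (0.18) was left out.

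Neuronal markers were set beside *Scn3b*. The library with the lowest *Scn3b*, 1b+/- replicate 2, also had the lowest sum of the 8 pan-neuronal genes (5994 CPM, against 6124 to 7134 CPM in the other 7 libraries) and the lowest sum of striatal markers (248 CPM), but the second highest sum of neocortical markers (4838 CPM). The library with the second lowest *Scn3b*, 1b-/- replicate 1, had the highest striatal (390 CPM) and neocortical (5055 CPM) sums. 1b+/- replicate 1, second lowest in the pan-neuronal sum (6124 CPM), was at 259.8 CPM of *Scn3b*. *Scn3b* was 3.19% to 4.39% of the pan-neuronal sum, a 1.38-fold range, against a 1.64-fold range of its CPM. The part of neuronal content in the spread of *Scn3b* was not tested. The 3 genes most like *Scn3b* over the 8 libraries, of 11229 compared at a mean of at least 5 CPM, were *Gnaz* (Pearson r 0.98), *Crmp1* (0.98) and *Gap43* (0.98). *Gnaz* encodes a G protein alpha subunit, and *Crmp1* and *Gap43* encode proteins of growing axons. In all, 125 genes had an r above 0.9 with *Scn3b*, which describes libraries that also share differences in depth and tissue content.

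*Scn2b* was measured with 75 to 407 counts per library. It was 15.4 and 24.1 CPM in WT replicates 1 and 2. It was 20.7, 16.5, 19.7 and 25.0 CPM in 1b+/- replicates 1 to 4, and 22.6 and 28.3 CPM in the 1b-/- replicates. The genotypes overlapped, with the lowest level in a WT library and the highest in a 1b-/- library. The WT mean was 19.7 ± 6.14 CPM (SD, n = 2), the 1b+/- mean 20.5 ± 3.54 CPM (SD, n = 4) and the 1b-/- mean 25.5 ± 3.99 CPM (SD, n = 2). The 2 WT libraries, with 95% counting intervals of 13.2 to 17.8 CPM and 20.4 to 28.1 CPM, differed from each other by more than the WT mean differed from that of 1b-/-.

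*Scn2b* also did not pass the test between genotypes. The edgeR log2 fold change was 0.05 (SE 0.23, 95% interval -0.45 to 0.55, unadjusted p = 0.830) in 1b+/- against WT. It was 0.37 (SE 0.26, 95% interval -0.20 to 0.95, unadjusted p = 0.184) in 1b-/- against WT, a fold of 1.295 with an interval of 0.868 to 1.93. Between 1b-/- and 1b+/- it was 0.32 (SE 0.23, 95% interval -0.17 to 0.82). The values turned on which WT library was kept. WT replicate 1, which had the lowest *Scn2b*, also had the highest sum of epithelial genes (199.8 CPM), and the part of that tissue in the level was not tested. Without WT replicate 1 the edgeR log2 fold change was -0.25 in 1b+/- and 0.07 in 1b-/-, and without WT replicate 2 it was 0.40 and 0.72 (edgeR unadjusted p = 0.0383 and Benjamini-Hochberg adjusted p = 0.9996 for the last).

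The genes most like *Scn2b* over the 8 libraries were *Get4* (Pearson r 0.96), *Rara* (0.95) and *Cyb5r1* (0.95), of 11229 compared. *Rara* encodes a retinoic acid receptor and *Get4* a factor in the insertion of tail-anchored membrane proteins. In all, 32 genes had an r above 0.9 with *Scn2b*. *Scn2b* held 0.216% to 0.397% of the pan-neuronal sum, lowest in WT replicate 1 and highest in 1b-/- replicate 2.

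*Scn4b* was at the edge of detection, with 53 counts over all 8 libraries. WT replicates 1 and 2 held 6 and 1 counts (0.496 and 0.153 CPM). In 1b+/- replicates 1 to 4 there were 14, 9, 9 and 1 counts (0.924, 0.909, 0.436 and 0.334 CPM). The 1b-/- replicates held 11 and 2 counts (1.35 and 0.501 CPM). Both 1b-/- libraries lay above both WT libraries, but by 0.501 against 0.496 CPM at the nearest, and the 95% counting interval of the former was 0.0606 to 1.81 CPM. The WT mean was 0.325 ± 0.242 CPM (SD, n = 2), the 1b+/- mean 0.651 ± 0.310 CPM (SD, n = 4) and the 1b-/- mean 0.924 ± 0.598 CPM (SD, n = 2).

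No change of *Scn4b* was detectable at this depth, and its fits are conditioned on the 1b-/- library that carried it past the filter. The edgeR log2 fold change was 0.92 (SE 0.81, 95% interval -0.84 to 2.68, unadjusted p = 0.276) in 1b+/- against WT. In 1b-/- against WT it was 1.45 (SE 0.92, 95% interval -0.55 to 3.45, unadjusted p = 0.141), a fold of 2.73 with an interval of 0.681 to 10.9. Between 1b-/- and 1b+/- it was 0.53 (SE 0.73, 95% interval -1.07 to 2.13). Without 1b-/- replicate 1 *Scn4b* did not pass the filter and was not tested. With no filter on low counts and all 8 libraries, the edgeR log2 fold change in 1b-/- against WT was 1.44 (SE 0.98). Leaving out WT replicate 2, with its single count, gave 0.46 in 1b+/- and 0.99 in 1b-/-, and leaving out WT replicate 1 gave 2.07 and 2.60.

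Markers of the cells that *Scn4b* is known from were measured beside it. The 8 striatal markers were detected in every library and summed to 248 to 390 CPM. Their sum was highest in 1b-/- replicate 1 (390 CPM), the library with the highest *Scn4b*, and 5 of 8 of these genes were highest there. It was lowest in 1b+/- replicate 2 (248 CPM), where *Scn4b* was 0.909 CPM. The 4 Purkinje cell markers summed to 58.5 CPM in 1b+/- replicate 1 and to 10.02 to 21.4 CPM elsewhere. Most of that sum was *Car8* (51.3 CPM), and 2 of the 4 genes were highest there. *Scn4b* in that library was 0.924 CPM, second to 1b-/- replicate 1. The part of either cell type in the *Scn4b* level was not tested. The genes most like *Scn4b*, of 11230 compared, were *Pms2* (Pearson r 0.94), *Cnpy2* (0.94) and *Snrpe* (0.93), and in counts this sparse the likeness is a description only.

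**Figure D2:**
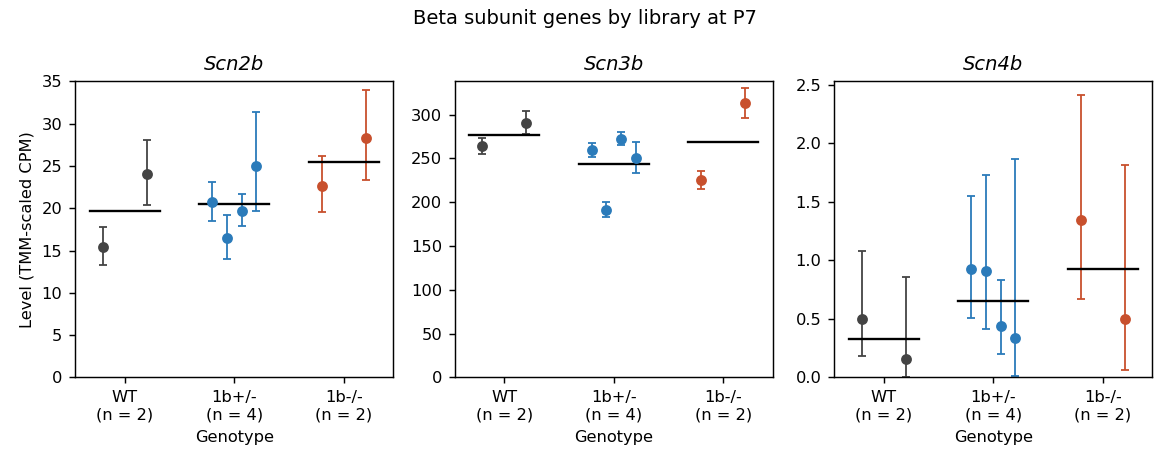
TMM-scaled CPM of *Scn2b*, *Scn3b* and *Scn4b* (vertical axes, linear, from 0) in each library by genotype. Points are libraries in replicate order, whiskers are 95% Poisson counting intervals and horizontal bars are genotype means. *Scn3b* runs from 191 to 313 CPM and *Scn2b* from 15.4 to 28.3 CPM with genotypes overlapping, while *Scn4b* stays at 0.153 to 1.35 CPM with whiskers that span most of that range.

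Across the members, 0 of the 3 genes passed an adjusted p of 0.05 in any of the 3 comparisons of genotypes. The edgeR quasi-likelihood test with Benjamini-Hochberg adjustment gave each of them an adjusted p of 0.9999 or above. Over all 15588 genes, the background of genes past that threshold was 0.0834% in 1b+/- against WT, 0.00642% in 1b-/- against WT and likewise 0.00642% when 1b-/- was set against 1b+/-. Again 0 members had an unadjusted p under 0.05, against 676, 255 and 192 genes over the whole table in the same order. The DESeq2 Wald test and the edgeR likelihood ratio test called 0 members as well. Libraries of the genotypes did not overlap for 0 of 3 members in 1b+/- against WT (background 12.3%), for 1 of 3 in 1b-/- against WT (*Scn4b*, background 23.6%) and for 0 of 3 in 1b-/- against 1b+/- (background 7.39%). The non-overlap of *Scn4b* was lost under RLE scaling. It is also conditioned on the 1b-/- library that carried *Scn4b* past the filter, and is a description.

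Mean CPM was also compared by exact two-sided permutation tests. In 1b+/- against WT the exact p was 0.8 for *Scn2b*, 0.267 for *Scn3b* and 0.4 for *Scn4b*, where the smallest that 15 arrangements allow is 0.133. In 1b-/- against WT it was 0.667, 1.0 and 0.333, where the smallest that 6 arrangements allow is 0.333. In 1b-/- against 1b+/- it was 0.267, 0.533 and 0.4, with 15 arrangements. None of these designs could reach 0.05. For *Scn4b*, both comparisons with 1b-/- include the library that carried it past the filter, so its values there are descriptions.

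*Scn1a* was in contrast lower by an edgeR log2 fold change of -3.97 (95% interval -4.66 to -3.28, adjusted p = 5.96e-04) in 1b-/- against WT. The intervals of *Scn2b*, *Scn3b* and *Scn4b* in that comparison lay wholly above that of *Scn1a*, but the difference between genes was not itself tested. The ratio of the summed beta subunit RPKM to *Scn1a* RPKM was 14.9 and 18.7 in WT, 22.6 to 42.4 in 1b+/-, and 188 and 411 in 1b-/-. These ratios did not overlap between genotypes, but neither did their denominator, so the separation is no result about the beta subunit genes. The numerator overlapped in all genotypes (60.8 and 68.4 RPKM in WT, 45.3 to 63.6 RPKM in 1b+/-, 54.1 and 74.3 RPKM in 1b-/-). Set against the sum of 9 alpha subunit genes with a length, the beta subunit sum was 0.970 and 1.19 in WT, 0.877 to 1.28 in 1b+/-, and 0.852 and 1.33 in 1b-/-. On this scale the genotypes overlapped.

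**Figure D3:**
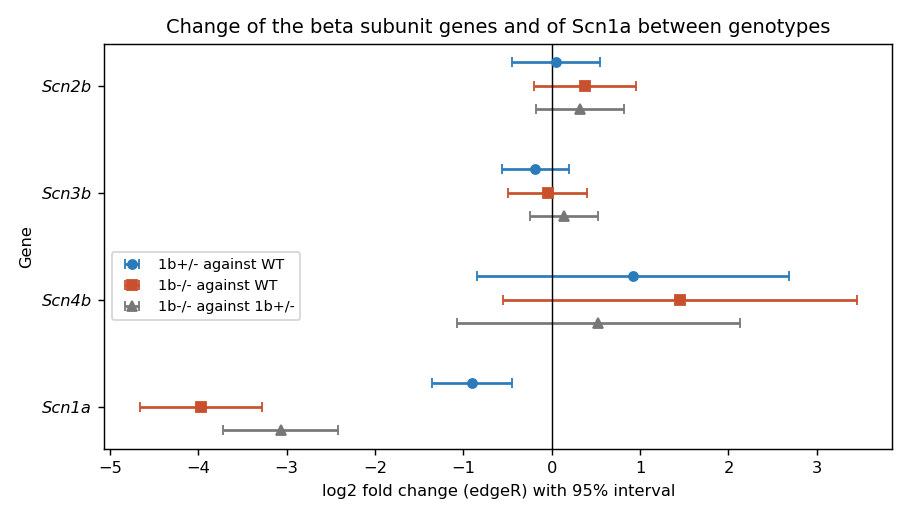
edgeR log2 fold change (horizontal axis) of *Scn2b*, *Scn3b*, *Scn4b* and *Scn1a* in the 3 comparisons of genotypes, with 95% intervals as whiskers. The intervals of the beta subunit genes all cross 0 and are widest for *Scn4b* (-0.55 to 3.45 in 1b-/- against WT). The *Scn1a* intervals lie below 0, though its change in 1b+/- against WT did not pass after adjustment.

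A slope over 0, 1 and 2 deleted alleles was fitted as a further test. It was 0.19 per allele for *Scn2b* (SE 0.13), -0.02 for *Scn3b* (SE 0.10) and 0.71 for *Scn4b* (SE 0.43) on the log2 scale. The edgeR unadjusted p-values were 0.167, 0.820 and 0.127. For *Scn4b* the slope is conditioned on the 1b-/- library that carried it past the filter, so its values are descriptions. By the edgeR quasi-likelihood test 0 of 3 passed, with adjusted p-values of 0.9999, against a background of 0.0385% of genes. There were 270 genes over the whole table at an unadjusted p under 0.05. Without WT replicate 2 the slope of *Scn2b* was 0.35 (edgeR unadjusted p = 0.0248), which also did not pass the adjustment.

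Both sexes were represented only among 1b+/- animals, where females were set against males. *Scn4b* was 0.924 and 0.909 CPM in the males and 0.436 and 0.334 CPM in the females, a log2 fold change of -1.13 (SE 0.83, edgeR unadjusted p = 0.204). *Scn2b* differed by 0.24 (SE 0.27) and *Scn3b* by 0.22 (SE 0.20), with males and females overlapping. By the edgeR test 0 of 3 members passed (background 0.0321%, 415 genes at an unadjusted p under 0.05). The sexes did not overlap for 1 of 3, *Scn4b*, where the background was 26.2%. With sex as a covariate, the *Scn4b* change in 1b-/- against WT was 2.58 (SE 1.21, edgeR unadjusted p = 0.0585, adjusted p = 0.9999), and its slope per allele was 1.29 (SE 0.57, edgeR unadjusted p = 0.0427, adjusted p = 0.999). Since *Scn4b* passed the filter only through a 1b-/- library in which it was high, these values are conditioned on that level and are given as descriptions.

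No pair of members passed the test of correlation over the 8 libraries after adjustment. Pearson's r of log2 CPM was 0.54 for *Scn2b* with *Scn3b* (exact permutation p = 0.162, adjusted over 3 pairs 0.243), and Spearman's rho was 0.38 (exact permutation p = 0.360, adjusted 0.540). For *Scn2b* with *Scn4b* r was -0.28 (exact permutation p = 0.492, adjusted 0.492) and rho was -0.21 (exact permutation p = 0.619, adjusted 0.619). For *Scn3b* with *Scn4b* r was -0.63 (exact permutation p = 0.0956, adjusted 0.243) and rho was -0.50 (exact permutation p = 0.216, adjusted 0.540). Without the 2 libraries farthest from the median of the first gene, r was 0.44, -0.30 and -0.82 in the same order, with exact permutation p-values of 0.390, 0.558 and 0.0514. With the genotype means removed, r was 0.66, -0.83 and -0.71. Permuting these residuals over the 8 libraries gave p-values of 0.0763, 0.0297 and 0.0679, each 0.0763 after adjustment. These p-values are not exact, because the residuals in a group of 2 mirror each other and are not freely exchangeable. *Scn4b* held counts of 1 or 2 in 3 of the 8 libraries.

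The balance between *Scn3b* and *Scn2b* was given as the ratio of their RPKM, which was not tested between genotypes. *Scn3b* exceeded *Scn2b* per length by 16.99 and 11.96 times in WT, by 12.4, 11.5, 13.7 and 9.92 times in 1b+/-, and by 9.83 and 11.0 times in 1b-/-. Both 1b-/- ratios lay below both WT ratios, and the 1b+/- ratios overlapped each of these groups. With 2 libraries in each group, 23.6% of single genes also did not overlap between 1b-/- and WT, in either direction. No such share was computed for ratios of other genes. WT replicate 1 had the highest ratio and the rest spanned 9.83 to 13.7. The neighbours *Scn2b* and *Scn4b* differed per length by 18.2 to 170 times, the widest value coming from a single *Scn4b* count in WT replicate 2.

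Partners of the beta subunits were examined as a fixed group. Of 10 genes for ankyrins, spectrin, adhesion partners and extracellular ligands, 10 were tested and 0 were called in each comparison. Their median log2 fold change was -0.07 in 1b+/- against WT, -0.03 in 1b-/- against WT and 0.08 when 1b-/- was set against 1b+/-, beside medians of 0.01, -0.01 and -0.00 over all genes. *Ank3*, which encodes the ankyrin that gathers sodium channels at the axon initial segment, was 248 to 314 CPM and differed by -0.01 in 1b-/- against WT. *Nfasc*, encoding the adhesion molecule neurofascin, was 150.3 to 198 CPM and differed by -0.06. *Cntn1*, encoding contactin, was 186 to 286 CPM and differed by -0.02, and *Cntnap1*, of the paranodal junction, was 2.48 to 5.41 CPM. The summed level of the group was 2898 and 2934 CPM in WT, 2558 to 2909 CPM in 1b+/- and 2753 and 2824 CPM in 1b-/-.

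Of 9 genes for the secretases that cleave beta subunits, 8 were tested and 0 were called in each comparison. Their medians were -0.08, -0.03 and 0.02 in the same order. *Bace1* was 90.7 to 105 CPM and differed by 0.10 in 1b-/- against WT, and *Adam10*, encoding an alpha-secretase, was 179.6 to 285 CPM and differed by -0.25. *Psenen*, which encodes a gamma-secretase subunit, held at most 0.668 CPM and was not tested. Of 10 alpha subunit genes tested, 0 were called in 1b+/- against WT, and *Scn1a* was the only one called, lower, in both comparisons of 1b-/-. Their medians were 0.03, 0.06 and 0.09. Of the 8 pan-neuronal genes 0 were called, with medians of -0.21, -0.11 and 0.12. The share of all genes called was 0.0834% in 1b+/- against WT and 0.00642% in both comparisons of 1b-/-. Beside it, a count of 0 does not set a list apart.

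Over the processing settings, *Scn4b* had the widest range of fold changes in each comparison of genotypes. The 240 log2 fold changes of the 3 genes under alternative settings cover the comparisons of genotypes, the slope and the sexes. Of these, 230 kept their sign and 0 passed the adjusted threshold. Some could hardly change, because the library left out was in neither group compared. Runs in which *Scn4b* did not pass the filter are not among the 240. *Scn3b* in 1b-/- against WT ranged from -0.30 to 0.18, *Scn2b* from 0.07 to 0.72 and *Scn4b* from 0.99 to 2.60.

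**Figure D4:**
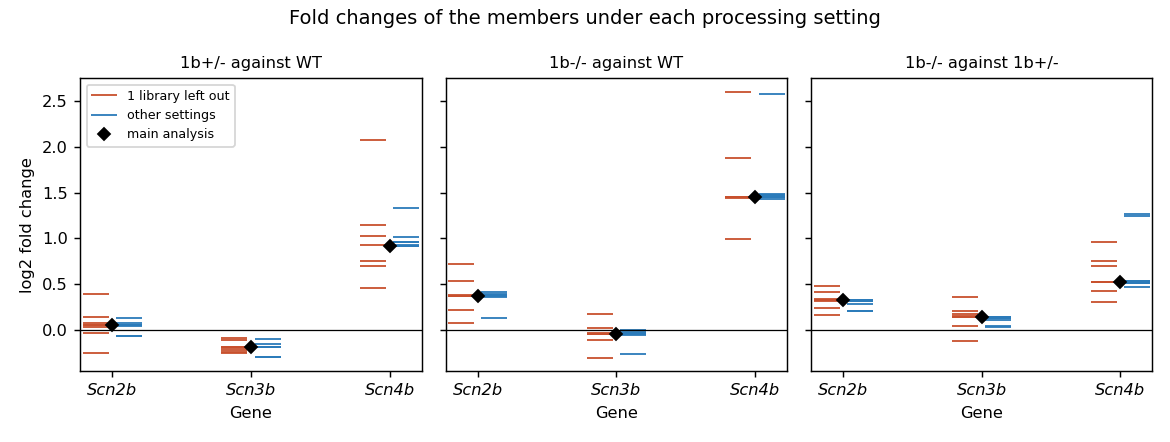
log2 fold change (vertical axis) of each member in the 3 comparisons of genotypes, in the main analysis (diamonds), with 1 library left out (red dashes) and under the other filters, scalings, tests, covariates and sample sets (blue dashes). *Scn2b* in 1b+/- against WT moves between -0.25 and 0.40, either side of 0, and *Scn4b* moves most.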

How the data were processed

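RNA-seq was analysed for 8 libraries, of which 2 were WT, 4 were 1b+/- and 2 were 1b-/-. According to the labels and methods, stranded poly(A) libraries were sequenced as single-end reads. The authors aligned them to mm9 with STAR (2.7.2) and counted per gene with featureCounts, and the deposited counts are whole, unnormalized reads per gene symbol. The strand setting, the treatment of multiply matched reads and the annotation release were not given in the sources used here. The members and the gene lists were chosen with earlier results of these data known.

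Groups came from the genotype label, and replicates were numbered in the order of deposition. Counts were tested in R 4.3.3 with edgeR 4.0.16 (quasi-likelihood, TMM, all 8 libraries, genotype only) over the 15588 genes that reached 1 CPM in any library. P-values were adjusted by Benjamini-Hochberg at 0.05. The 95% intervals used the standard error with the total degrees of freedom of the quasi-likelihood fit, residual plus prior. RPKM used merged exons of the mm9 annotation from GENCODE. Counting intervals are exact Poisson and cover counting error only. Named genes were the members, *Scn1a*, list genes that a result turned on and the 3 most like each member. Alternatives covered filters, scalings, DESeq2 1.42.0, the likelihood ratio test, sex, subsets and each library left out. The fits were tested on simulated data. Some items are not reported here. P-values measure spread between single animals as labelled.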

Additional observations from a re-analysis of the deposited data

Results flagged for a closer look

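Gaps within the 4 1b+/- libraries were examined for 23 measures, and 1 of them passed Dixon's criterion at 95%, where chance gives 1.15. It was the summed CPM of the 4 Purkinje cell markers. 1b+/- replicate 1 stood at 58.5 CPM and the other 3 1b+/- libraries at 10.02 to 14.3 CPM, a gap of 0.911 of the range. *Car8* made up 51.3 CPM of that sum, and 2 of the 4 markers were highest in that library. *Pcp2*, another of the 4, held at most 0.766 CPM in any library. *Scn4b* was 0.924 CPM in that library and 0.334 to 0.909 CPM in the other 3. The members themselves did not pass the criterion, with gaps of 0.503 (*Scn2b*), 0.730 (*Scn3b*) and 0.173 (*Scn4b*) of the range.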

How the results depend on the processing

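The number of members past the threshold was 0 in all 5 comparisons under each alternative run. The sign changed in 10 of 240 log2 fold changes. Some of the 240, but none of the 10, came from runs that left out a library of neither group compared. *Scn2b* in 1b+/- against WT (0.05) became -0.0678 with sex as a covariate, -0.0636 in males only, -0.25 without WT replicate 1 and -0.04 without 1b+/- replicate 4, with leave-one-out values from -0.25 to 0.40. *Scn3b* in 1b-/- against WT (-0.05) became 0.0001 with library size only, 0.03 without WT replicate 2 and 0.18 without 1b-/- replicate 1, with leave-one-out values from -0.30 to 0.18, and its difference in mean CPM became 0.518 with library size only. *Scn3b* in 1b-/- against 1b+/- became -0.12 without 1b-/- replicate 2, with leave-one-out values from -0.12 to 0.36. Its slope per allele became 0.04 without WT replicate 2 (0.0368) and without 1b-/- replicate 1 (0.0362), with leave-one-out values from -0.16 to 0.04. The cause was not tested. Where 1 animal was left in a group, it was assumed to vary like the others. *Scn4b* was not tested under filterByExpr, without 1b-/- replicate 1, in males only or in WT and 1b+/- alone, since it did not pass the filter there. Over all genes, the number called ranged over the alternatives from 0 to 64 in 1b+/- against WT (13), from 1 to 33 in 1b-/- against WT (1), from 0 to 1 in 1b-/- against 1b+/- (1), from 0 to 31 per allele (6) and from 5 to 85 between the sexes (5). No paired analysis was possible because the replicate numbers follow the order of deposition and pair no animals. Depth limits *Scn4b* most, since 3 counts are 1.002 CPM in the shallowest library.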
